A study of Mus musculus with 6 samples.

Results

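Soluble guanylate cyclase, the cGMP-dependent protein kinases and 5 cGMP-related phosphodiesterases were examined in the mouse aorta as a set of 10 genes, chosen by name and found by NCBI gene identifier among the 18191 genes of the deposited table. The set held the subunits of soluble guanylate cyclase (*Gucy1a1*, *Gucy1a2* and *Gucy1b1*), the kinases *Prkg1* and *Prkg2*, and the phosphodiesterases *Pde5a*, *Pde3a*, *Pde2a*, *Pde1a* and *Pde9a*. All 10 genes were in the table and all 10 passed the filter on low counts. RNA of aorta from male mice was sequenced in 3 WT libraries and 3 *Npr1*+/- libraries, the latter from heterozygous mice in which CRISPR-Cas9 disrupted 1 copy of *Npr1*. The labels name no drug treatment, and the age and strain of the mice were not given in the sources used here. Libraries carry the numbers 1 to 3 within a genotype, and the labels do not say that each came from a separate mouse, so p-values measure the spread between these libraries.

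Soluble guanylate cyclase is a dimer of an alpha and a beta subunit whose haem binds nitric oxide and which then makes cGMP from GTP. *Npr1*, the receptor of atrial and brain natriuretic peptide, makes the same messenger at the cell membrane. In vascular smooth muscle, cGMP activates the kinase encoded by *Prkg1*, which lowers calcium and relaxes the vessel, and phosphodiesterases end the signal by hydrolysing cyclic nucleotides.

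The estimated counts summed to between 13510970 and 16664343 per library. *Npr1* itself was at 453, 611 and 633 CPM (counts scaled to library size, normalized between libraries by the TMM method) in the WT libraries and at 295, 452 and 526 in the *Npr1*+/- libraries, and the groups overlapped. The log2 ratio of *Npr1*+/- to WT was -0.41 ± 0.27 (standard error), with an edgeR adjusted p of 0.999. The libraries numbered 1 stood apart from the other 4 in both genotypes. The 8 smooth muscle markers, all of them above the floor of 3 counts in every library, summed to between 21157 and 38858 CPM in WT and to between 12946 and 34909 CPM in *Npr1*+/- libraries, with the lowest value of each genotype in its library numbered 1. The 6 brown fat markers reached 3100 CPM in WT 1 and 3042 CPM in *Npr1*+/- 1, against at most 927 CPM elsewhere, and the 11 neuron markers reached 512 CPM in *Npr1*+/- 1 against at most 14.04 CPM elsewhere, with 3 of the 11 above the floor in all 6 libraries. In bulk tissue, fewer cells of a type and less RNA per cell cannot be told apart.

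Levels of different genes were compared in FPKM, which is scaled by transcript length and library size. The mean over the 6 libraries was highest for *Gucy1b1* (53.3 FPKM), followed by *Gucy1a1* (40.2), *Pde5a* (32.0), *Pde3a* (20.8), *Pde2a* (11.9), *Pde1a* (6.49), *Prkg1* (5.66), *Pde9a* (1.95), *Gucy1a2* (0.860) and *Prkg2* (0.415). *Gucy1b1* had a higher mean FPKM than 91.9% of the genes in the table, and *Prkg2* a higher one than 26.1%. Each gene overlapped with the next in its range over the libraries, except for *Gucy1a2* above *Prkg2*. Within libraries the order was steadier. *Gucy1b1* was above *Gucy1a1*, *Gucy1a1* above *Pde5a*, *Pde5a* above *Pde3a*, and *Pde9a* above *Gucy1a2* in 6 of 6 libraries. *Pde3a* was above *Pde2a* in 5 of 6 libraries, where *Npr1*+/- 1 was the exception. *Pde1a* and *Prkg1* did not differ in order, with *Pde1a* above in 3 of 6 libraries.

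**Figure D1:**
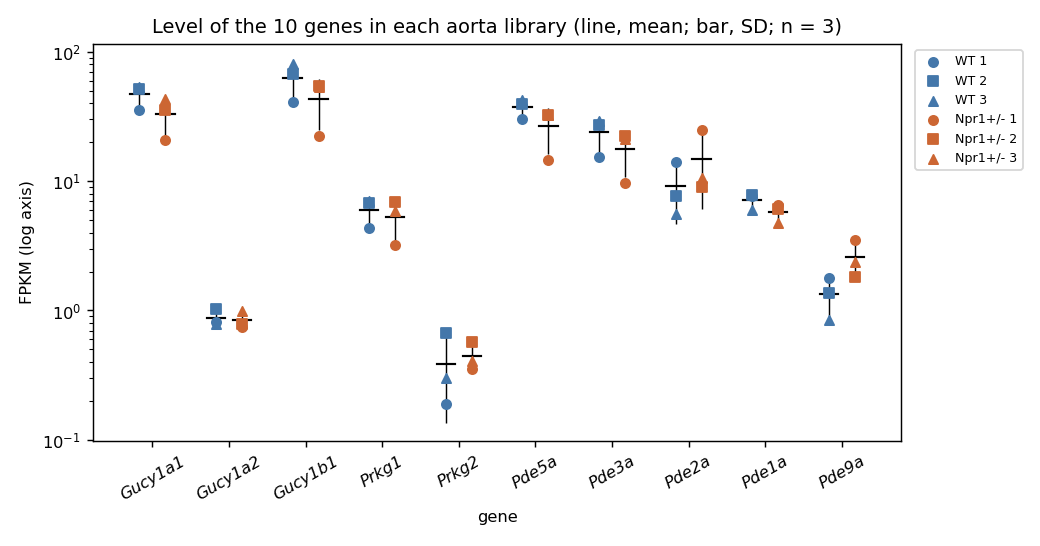
FPKM of the 10 genes on a log axis in each of the 6 libraries, with WT in blue and *Npr1*+/- in orange, the marker shape giving the replicate number, horizontal lines the mean and vertical bars the SD (n = 3). *Gucy1b1*, *Gucy1a1*, *Pde5a* and *Pde3a* have the highest means, and the libraries numbered 1 (circles) are low for these 4 genes and high for *Pde2a*.

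*Gucy1a1* (NCBI gene 60596) and *Gucy1b1* (NCBI gene 54195) encode the alpha 1 and beta 1 subunits, which form the main dimer of vascular smooth muscle. They lie next to each other on the minus strand of chromosome 3 of GRCm38, *Gucy1b1* from 82032006 to 82074689 and *Gucy1a1* from 82092427 to 82145789 (GENCODE M21), with 17737 bases and no other coding gene between them. *Gucy1a1* was at 35.35, 51.98 and 53.89 FPKM in WT 1 to 3 and at 20.86, 35.70 and 43.16 FPKM in *Npr1*+/- 1 to 3. Its mean was 47.1 ± 10.2 FPKM in WT and 33.2 ± 11.4 FPKM in *Npr1*+/- aortas (SD, n = 3). The groups overlapped, since *Npr1*+/- 2 and 3 were above WT 1, while by replicate number the *Npr1*+/- library was always the lower one, at 61.6%, 71.0% and 75.8% of the WT library in CPM.

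*Gucy1b1* was at 41.20, 67.11 and 81.13 FPKM in WT 1 to 3. In *Npr1*+/- 1 to 3 it was at 22.23, 54.52 and 53.39 FPKM, and *Npr1*+/- 2 and 3 again lay between WT 1 and WT 2. The means were 63.1 ± 20.3 FPKM in WT and 43.4 ± 18.3 FPKM in *Npr1*+/- aortas (SD, n = 3). By number, the *Npr1*+/- library was at 56.3%, 83.9% and 62.3% of WT in CPM. The log2 fold changes were -0.50 for *Gucy1a1* (standard error 0.30, 95% interval -1.21 to 0.21) and -0.55 for *Gucy1b1* (standard error 0.40, 95% interval -1.49 to 0.40). Both had an edgeR adjusted p of 0.999 (quasi-likelihood, Benjamini-Hochberg over 13938 genes), with no pairing of the numbers. Blocked by number, the 95% intervals were -0.82 to -0.23 and -0.93 to -0.24, and the adjusted p from edgeR was 0.172 and 0.190. A blocked DESeq2 model called both genes (below).

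*Gucy1a2* (NCBI gene 234889, chromosome 9 from 3532778 to 3894736, plus strand) encodes the alpha 2 subunit, which can take the place of alpha 1 in the dimer. It was at 0.82, 1.02 and 0.79 FPKM in WT 1 to 3 and at 0.75, 0.79 and 0.99 FPKM in *Npr1*+/- 1 to 3, with between 151 and 225 estimated counts behind each value. It had the smallest spread of the 10 genes, with the highest library at 1.29 times the lowest in CPM, where *Gucy1b1* had 3.65 times. The log2 fold change was -0.05, with a 95% interval from -0.47 to 0.38. Of the FPKM of the alpha subunits, *Gucy1a1* made up 97.7%, 98.1% and 98.6% in WT 1 to 3, against 96.5%, 97.8% and 97.8% in *Npr1*+/- 1 to 3. The difference of -0.747 percentage points did not pass an exact two-sided permutation test (p = 0.3, adjusted p = 0.64 over 8 ratios, where 0.1 is the smallest p that 3 libraries against 3 allow). The FPKM of both alpha subunits together was 0.781 ± 0.102 times that of *Gucy1b1* in WT and 0.823 ± 0.151 times in *Npr1*+/- aortas (SD, n = 3, exact permutation p = 0.8), and lay between 0.669 and 0.972 in all 6 libraries.

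The 250 bases before the annotated start of 3 genes are shown because *Gucy1b1* and *Prkg1* were low in both libraries numbered 1 and *Pde2a* was high in both. The sequences are from RefSeq on GRCm38.p6 and run 5′ to 3′ on the strand of the gene. The set of promoter windows used here held 7 of the 10 genes. Capitals mark GGGCGG and CCAAT, searched on both strands, so that CCGCCC and ATTGG count as matches.
Gucy1b1, chr3:82074712-82074961, minus strand: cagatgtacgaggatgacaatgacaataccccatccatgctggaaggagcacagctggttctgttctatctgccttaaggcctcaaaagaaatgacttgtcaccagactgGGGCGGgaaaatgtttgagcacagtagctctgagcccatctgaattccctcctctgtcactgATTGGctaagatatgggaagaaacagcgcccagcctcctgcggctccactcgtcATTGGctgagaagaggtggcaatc
Prkg1, the most upstream of 2 starts, chr19:31765034-31765283, minus strand: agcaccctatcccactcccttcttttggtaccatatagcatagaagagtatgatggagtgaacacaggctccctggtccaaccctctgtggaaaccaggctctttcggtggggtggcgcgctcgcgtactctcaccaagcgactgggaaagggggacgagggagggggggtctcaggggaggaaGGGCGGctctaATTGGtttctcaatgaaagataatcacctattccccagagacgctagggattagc
Pde2a, the most upstream of 5 starts, chr7:101421441-101421690, plus strand: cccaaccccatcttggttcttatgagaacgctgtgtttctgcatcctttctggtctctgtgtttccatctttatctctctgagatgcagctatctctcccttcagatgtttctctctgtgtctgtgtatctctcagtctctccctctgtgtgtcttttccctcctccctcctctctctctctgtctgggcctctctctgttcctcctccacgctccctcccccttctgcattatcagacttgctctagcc
*Gucy1b1* held 1 GGGCGG and 2 CCAAT matches, *Prkg1* held 1 of each, and the window of *Pde2a* held neither. The windows not shown did not follow the levels in this way. *Gucy1a1* and *Pde5a*, also below the other 4 in both libraries numbered 1, held 1 GGGCGG and no CCAAT. *Gucy1a2*, which was not, held 1 of each, and *Pde1a* held 2 CCAAT and no GGGCGG. Among 27025 promoters of the same length, 33% held GGGCGG and 34.5% held CCAAT. A CArG box, the motif bound by serum response factor, was in 1.41% of all promoters and in none of the 7 windows. TATAA was in 23.5% of all and likewise in none of the 7. By the GENCODE coordinates, 211 of the 250 bases of *Pde5a*, 139 of *Gucy1a1* and 46 of *Pde1a* lay inside the gene. Those windows are therefore not wholly upstream. Matches of this kind describe the letters in the window and are not binding sites.

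*Prkg1* (NCBI gene 19091, chromosome 19 from 30564489 to 31765033, minus strand) encodes the cGMP kinase of smooth muscle and platelets, and *Prkg2* (NCBI gene 19092, chromosome 5 from 98929773 to 99037351, minus strand) the membrane-bound kinase known from intestine, bone and brain. *Prkg1* was at 4.31, 6.73 and 7 FPKM in WT 1 to 3 and at 3.23, 6.84 and 5.83 FPKM in *Npr1*+/- 1 to 3. Both libraries numbered 1 were below the other 4, and the *Npr1*+/- library was lower within 2 of 3 numbers. Its log2 fold change was -0.17 (standard error 0.31, 95% interval -0.91 to 0.57, edgeR adjusted p = 0.999), and it turned to 0.063 without *Npr1*+/- 1. Without both libraries numbered 1 it was -0.12. *Prkg1* spans 1200545 bases and holds the coding gene *Cstf2t* on the opposite strand. *Prkg2* was at 0.19, 0.67 and 0.30 FPKM in WT 1 to 3 and at 0.35, 0.57 and 0.41 FPKM in *Npr1*+/- 1 to 3, from only 11 to 46 estimated counts. Its 95% interval of the log2 fold change ran from -1.21 to 1.504, the widest of the set, and its standard error was 0.57 without and 0.36 with the replicate block. *Prkg1* made up between 90.2% and 95.9% of the FPKM of both kinases (94.2% ± 2.82 in WT and 92.0% ± 1.63 in *Npr1*+/- aortas, SD, n = 3, exact permutation p = 0.3).

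*Pde5a* (NCBI gene 242202, chromosome 3 from 122728947 to 122859374, plus strand) encodes the cGMP-specific enzyme that sildenafil inhibits. It was at 30.04, 39.40 and 42.72 FPKM in WT 1 to 3 and at 14.59, 32.51 and 32.67 FPKM in *Npr1*+/- 1 to 3. *Npr1*+/- 1 was far below the other 5 libraries, and the other *Npr1*+/- libraries lay between WT 1 and WT 2. *Pde3a* (NCBI gene 54611, chromosome 6 from 141249269 to 141507448, plus strand) encodes a phosphodiesterase that hydrolyses cAMP and is inhibited by cGMP. It was at 15.43, 26.99 and 29.40 FPKM in WT 1 to 3 and at 9.66, 22.23 and 21.02 FPKM in *Npr1*+/- 1 to 3, the same order of libraries as for *Gucy1b1*. The log2 fold changes were -0.49 for *Pde5a* (standard error 0.33, 95% interval -1.27 to 0.29) and -0.43 for *Pde3a* (standard error 0.39, 95% interval -1.36 to 0.49), each with an adjusted p of 0.999 from the same edgeR test. Within numbers, the *Npr1*+/- library was at 50.6%, 85.1% and 72.6% of WT for *Pde5a* and at 63.6%, 87.3% and 68.0% for *Pde3a*.

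*Pde2a* (NCBI gene 207728, chromosome 7 from 101421691 to 101512827, plus strand) encodes an enzyme that cGMP stimulates and that hydrolyses both cAMP and cGMP. Its libraries ran the other way. It was at 14.16, 7.68 and 5.55 FPKM in WT 1 to 3 and at 24.66, 9.01 and 10.50 FPKM in *Npr1*+/- 1 to 3, so that both libraries numbered 1 were above the other 4. The *Npr1*+/- library was at 182%, 120% and 176% of WT within the 3 numbers. The log2 fold change was 0.71 (standard error 0.49, 95% interval -0.47 to 1.89, edgeR adjusted p = 0.999) and was 0.057 without *Npr1*+/- 1, the library with the neuron markers. That fit keeps WT 1, the highest WT library. Without both libraries numbered 1 the log2 fold change was 0.53 (edgeR adjusted p = 0.317). The 8 endothelial markers summed to between 496 and 862 CPM in WT and to between 924 and 1424 CPM in *Npr1*+/- libraries, the highest in *Npr1*+/- 1. Relative to that sum, the difference of *Pde2a* on the log2 scale was -0.012 (exact permutation p = 1), a scale chosen after the data were seen. By library, *Pde2a* on this scale was at -3.72, -4.01 and -5.19 in WT 1 to 3 and at -3.77, -4.72 and -4.47 in *Npr1*+/- 1 to 3. It thus also varied within each genotype. The part of the endothelial, fat and neuron markers in its level was not tested. A second annotated coding gene, *Gm45837*, overlaps *Pde2a* on the same strand and could share its reads.

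*Pde9a* (NCBI gene 18585, chromosome 17 from 31386210 to 31476310, plus strand), an enzyme of high affinity for cGMP, showed the widest difference of the set. It was at 1.79, 1.37 and 0.85 FPKM in WT 1 to 3 and at 3.51, 1.82 and 2.39 FPKM in *Npr1*+/- 1 to 3. All *Npr1*+/- libraries were above all WT libraries, with WT 1 and *Npr1*+/- 2 close to each other, and the counts behind the values were 28 to 100. In CPM the mean was 2.63 ± 0.885 in WT and 5.12 ± 1.80 in *Npr1*+/- aortas (SD, n = 3). The log2 fold change was 0.96 (standard error 0.38, 95% interval 0.05 to 1.88), with edgeR p values of 0.0416 unadjusted and 0.999 adjusted, so that it did not pass the threshold over all genes. Relative to the summed endothelial markers, which were higher in each *Npr1*+/- library than in any WT library, its difference was 0.30 on the log2 scale (exact permutation p = 0.7).

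*Pde1a* (NCBI gene 18573, chromosome 2 from 79834453 to 80129458, minus strand) encodes a phosphodiesterase that calcium and calmodulin activate. It was at 7.71, 7.84 and 5.97 FPKM in WT 1 to 3 and at 6.54, 6.14 and 4.75 FPKM in *Npr1*+/- 1 to 3, which overlap. In normalized CPM the groups did not overlap, with WT values of 28.3, 28.7 and 25.1 against *Npr1*+/- values of 24.8, 24.0 and 18.4. Its log2 fold change of -0.29 had the narrowest 95% interval of the set, from -0.66 to 0.09 (standard error 0.16, edgeR adjusted p = 0.999).

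Together the 5 phosphodiesterase genes were led by *Pde5a* and *Pde3a*, except in *Npr1*+/- 1. *Pde5a* made up 47.1% ± 3.56 of their summed FPKM in WT and 38.6% ± 12.02 in *Npr1*+/- aortas, and *Pde3a* 29.8% ± 6.62 and 25.6% ± 8.03 (SD, n = 3). *Pde2a* made up 20.5%, 9.22% and 6.57% in WT 1 to 3, against 41.8%, 12.6% and 14.7% in *Npr1*+/- 1 to 3, and was the first of the 5 genes in *Npr1*+/- 1. *Pde9a* held 1.75% ± 0.797 in WT and 3.95% ± 1.78 in *Npr1*+/- aortas, whereas *Pde1a* held 9.21% ± 2.05 and 8.77% ± 2.22. Within all 3 numbers the *Npr1*+/- library had the lower share of *Pde5a*, *Pde3a* and *Pde1a* and the higher share of *Pde2a* and *Pde9a*. Exact two-sided permutation tests gave p between 0.2 and 0.7 (adjusted p between 0.64 and 0.8 over the 8 ratios), but with 3 libraries against 3 no share could go below 0.1. With CPM in place of FPKM the share of *Pde5a* reached that smallest value (exact permutation p = 0.1, not adjusted). On that measure the exact permutation p was 0.2 for *Pde9a* and 0.5 for *Pde3a* and *Pde2a*, and the share of *Pde1a* turned in direction. CPM is not scaled by length. Without *Npr1*+/- 1 the difference in share went from -8.48 to -1.54 percentage points for *Pde5a* and from 10.9 to 1.55 for *Pde2a*. Without both libraries numbered 1 it was -3.37 percentage points for *Pde5a* and 5.75 for *Pde2a*.

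**Figure D2:**
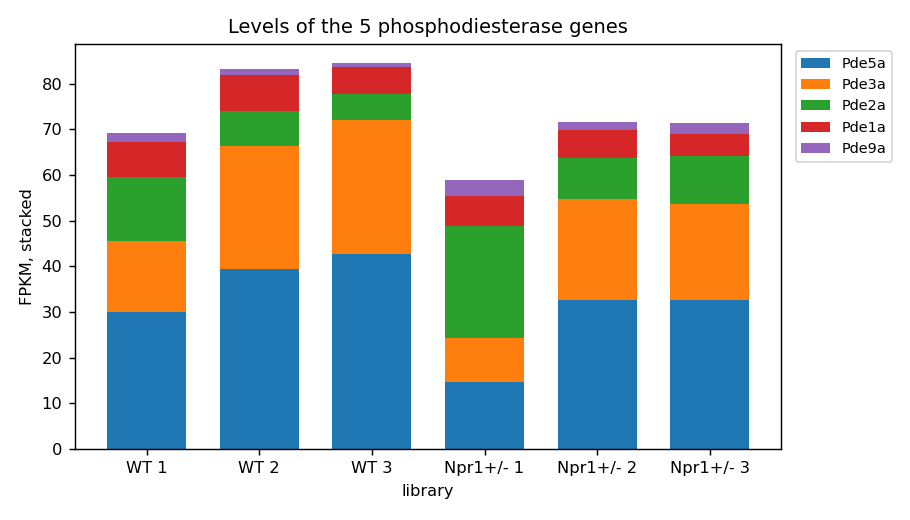
Stacked bars of the FPKM of *Pde5a*, *Pde3a*, *Pde2a*, *Pde1a* and *Pde9a* in each library, from 0. *Npr1*+/- 1 has the lowest *Pde5a* (14.59) and *Pde3a* (9.66) and the highest *Pde2a* (24.66) of the 6 libraries.

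Across the 6 libraries, *Gucy1a1*, *Gucy1b1*, *Prkg1*, *Pde5a* and *Pde3a* each had *Npr1*+/- 1 lowest, WT 1 next and WT 3 highest in CPM. The order of the remaining libraries was not the same for all of these genes. Their mean log2 CPM in both libraries numbered 1 minus that in the other 4 lay between -1.04 and -0.73, and both were below all of the other 4 for these 5 genes and for *Prkg2*, as for 24.2% of all genes tested. For *Pde2a* this difference was 1.25, with both libraries numbered 1 above the other 4, as for 23.9% of all genes. The summed smooth muscle markers had their lowest values in the same libraries. Relative to that sum, *Gucy1b1* differed by -0.27 on the log2 scale between *Npr1*+/- and WT. The groups did not overlap (exact permutation p = 0.1, the smallest that this design allows), and the share of all genes without overlap on this scale was not computed. On that scale *Gucy1a1* differed by -0.22, *Pde5a* by -0.24 and *Pde3a* by -0.15 (exact permutation p between 0.3 and 0.4), and *Prkg1* by 0.11 (exact permutation p = 0.7). Relative to the summed endothelial markers, the differences of these 5 genes ran from -1.25 (*Gucy1b1*) to -0.86 (*Prkg1*). The exact permutation p was 0.1 for *Gucy1a1* and *Pde5a* and 0.3 for *Gucy1b1*, *Pde3a* and *Prkg1*. The endothelial sum itself differed by 0.66. Relative to the smooth muscle markers, *Pde2a* differed by 0.97 and *Pde9a* by 1.28 (exact permutation p = 0.5 and 0.3). Both scales were chosen after the data were seen, and the part of the smooth muscle and endothelial content in the levels was not tested further.

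**Figure D3:**
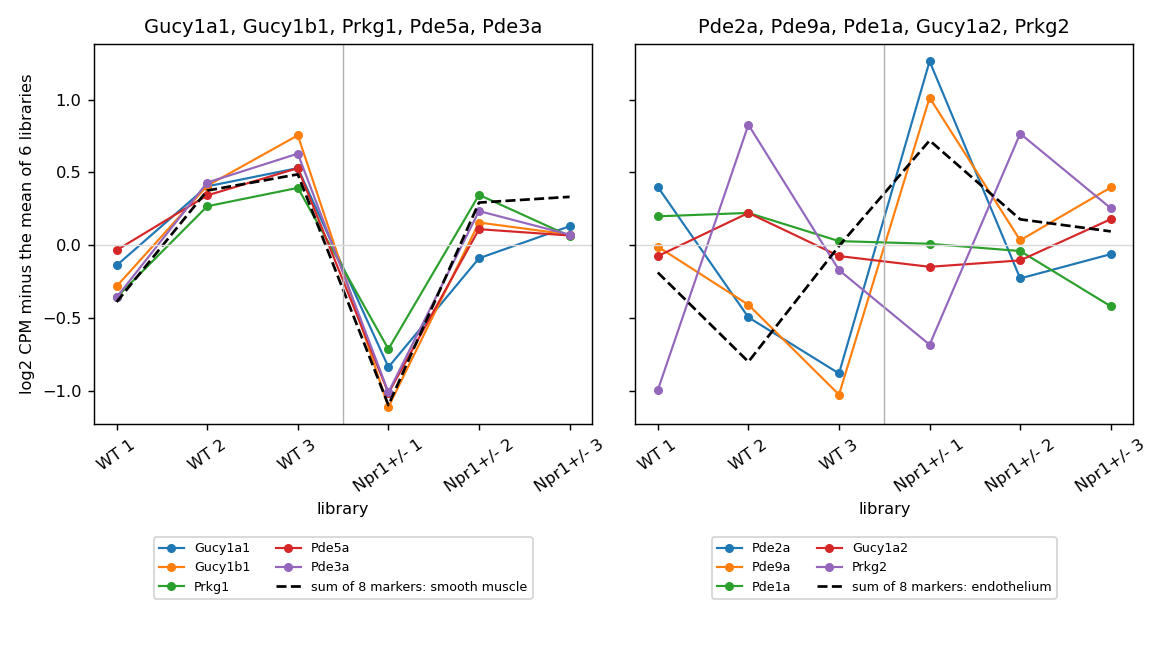
Log2 CPM of each gene minus its mean over the 6 libraries (lines with points), beside the sum of 8 marker genes of smooth muscle (left, dashed) or endothelium (right, dashed) on the same scale. The 5 genes at left and the smooth muscle markers are lowest in *Npr1*+/- 1, where *Pde2a* and *Pde9a* at right are highest.

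Calls required both an adjusted p under 0.05 and a log2 fold change of at least 0.5 in size. The unblocked edgeR test called 0 of the 10 genes, and 0% of all genes tested. At an unadjusted p under 0.05 it found 1 of the 10, *Pde9a*, where 2.96% of all genes were found (1.88% higher and 1.08% lower in *Npr1*+/-). DESeq2 called 0 of the 10, against 0.0887% of all genes, and had *Pde9a* alone under an unadjusted p of 0.05, against 3.24% of all genes (2.31% higher and 0.932% lower). In normalized CPM the groups did not overlap for 2 of the 10 genes. These were *Pde9a*, higher in *Npr1*+/- libraries as for 3.87% of all genes, and *Pde1a*, lower as for 3.6% of all genes. The labels do not say that the replicate numbers pair the libraries. Deviations from the genotype mean correlated at 0.64 across genes for number 1. WT 3 correlated more with *Npr1*+/- 2 (0.44) than with *Npr1*+/- 3 (0.24). Taken by number, the *Npr1*+/- library was lower within each number for 5 of the 10 genes (*Gucy1a1*, *Gucy1b1*, *Pde5a*, *Pde3a* and *Pde1a*), as for 17% of all genes. It was higher within each for 2 (*Pde2a* and *Pde9a*), as for 17.4%. Within numbers 2 and 3 alone these were again 5 lower, as for 27.3% of all genes, and 2 higher, as for 28%.

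When the edgeR model held the replicate number as a block, it again called 0 of the 10 genes, and 0% of all genes. Under this fit 7 of the 10 had an unadjusted p under 0.05, against 12.4% of all genes tested, with the same 5 genes lower and the same 2 higher. The smallest was that of *Pde2a* (log2 fold change 0.65, standard error 0.14, adjusted p = 0.149 from edgeR). *Gucy1a1* followed with -0.53 (standard error 0.13, unadjusted p = 0.00364, adjusted p = 0.172) and *Gucy1b1* with -0.59 (standard error 0.15, unadjusted p = 0.00475, adjusted p = 0.190), both from edgeR. *Pde5a* was at -0.56 and *Pde3a* at -0.47, with adjusted p of 0.257 and 0.258 from edgeR, *Pde9a* at 0.96 (adjusted p = 0.265) and *Pde1a* at -0.30 (adjusted p = 0.381). *Prkg1* was at -0.20 with a 95% interval from -0.50 to 0.10. Without both libraries numbered 1, edgeR with no block called 0 of the 10, against 0.00717% of all genes, and found 6 at an unadjusted p under 0.05, with 2 higher and 4 lower, against 11.5% (6.43% higher and 5.12% lower). On the same 4 libraries, the blocked test of edgeR found *Gucy1a1*, *Gucy1b1*, *Pde2a* and *Pde9a* at an unadjusted p under 0.05, which is 4 of the 10 against 8.88% of all genes (5.37% higher and 3.52% lower), and called 0 of the 10 against 0.23%. That fit was not planned and came after the first results. It rests on pairing numbers 2 and 3, which the correlations do not tell apart. A blocked DESeq2 model, added once results were known, called 3 of the 10 genes, where it called 1.46% of all genes. It had 6 of the 10 at an unadjusted p under 0.05, against 7.2% (4.28% higher and 2.92% lower), namely the 3 called and *Pde5a*, *Pde3a* and *Pde9a*. The 3 called genes were *Gucy1a1* (adjusted p = 0.0240), *Gucy1b1* (adjusted p = 0.0298) and *Pde2a* (adjusted p = 0.0453 from DESeq2), and over the 16 alternative fits their adjusted p reached 1.00.

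**Figure D4:**
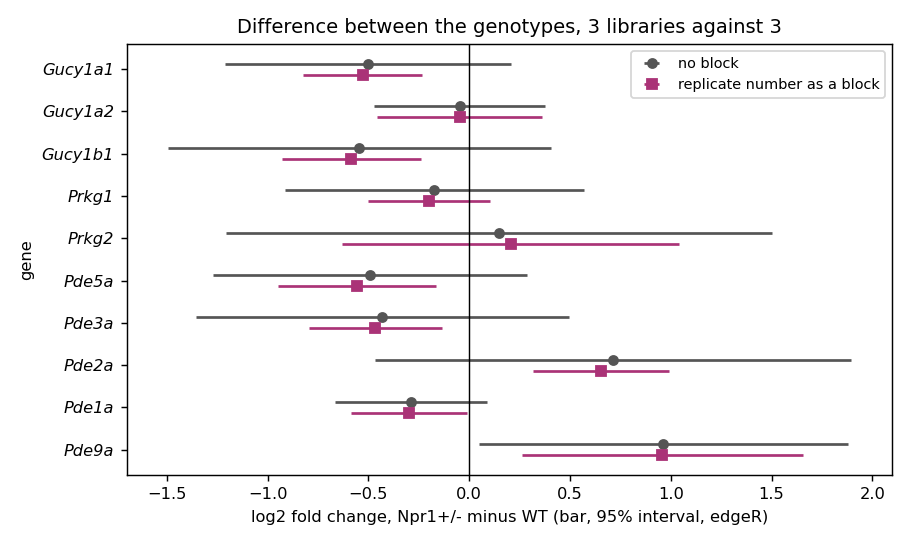
Log2 fold change of each gene between *Npr1*+/- and WT libraries with its 95% interval from edgeR, unblocked (grey circles) and blocked by replicate number (purple squares). Without the block the interval excludes 0 for *Pde9a* alone, and with it for 7 genes, whose adjusted p lay between 0.149 and 0.381.

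Other genes of the pathway were counted from 5 lists. Of their genes 41 were tested, and edgeR called 0 with or without the block. The 16 targets of the cGMP kinase, proteins of calcium handling and contraction, had a median log2 fold change of -0.26, with 14 of 16 negative, against a median of 0.01 over all genes tested, of which 6752 of 13938 were negative, and -0.23 over the 10 genes of the set. The summed smooth muscle markers differed by -0.32 on the log2 scale (exact permutation p = 0.5) and were lowest in the libraries numbered 1, and their part in these values was not tested. At an unadjusted p under 0.05 edgeR found 0 of these 16 without the block, and with it 3 lower and 1 higher, against 5.09% and 7.36% of all genes. *Mrvi1* (also *Irag1*), which the kinase phosphorylates to restrain calcium release, was at 70.9 ± 16.9 FPKM in WT and 50.5 ± 21.3 FPKM in *Npr1*+/- aortas (SD, n = 3, log2 fold change -0.49, adjusted p = 0.999 from edgeR). *Pln*, the inhibitor of the calcium pump, was at 3.10 ± 0.462 and 2.41 ± 0.568 FPKM (log2 fold change -0.36).

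Of the 19 other phosphodiesterase genes, 14 were tested, with 8 positive and 6 negative log2 fold changes and a median of 0.06. The smallest unadjusted p from edgeR without the block were those of *Pde1c* and of *Pde4b*, a cAMP-specific enzyme, each with an adjusted p of 0.999. *Pde1c* was at 0.473 ± 0.545 FPKM in WT and 0.113 ± 0.0764 FPKM in *Npr1*+/- aortas (log2 fold change -2.18). By library it was at 1.1, 0.21 and 0.11 FPKM in WT 1 to 3 and at 0.13, 0.03 and 0.18 FPKM in *Npr1*+/- 1 to 3. Its fold change thus rested largely on WT 1, at low levels. *Pde4b* was at 11.3 ± 3.51 and 7.32 ± 2.12 FPKM (log2 fold change -0.61). With the block edgeR found 1 of the 14 higher and 2 lower at an unadjusted p under 0.05, against 7.36% and 5.09% of all genes. The higher one was *Pde3b*, a phosphodiesterase of fat cells, named here after its values were seen. It was at 34.93, 10.06 and 9.31 FPKM in WT 1 to 3 and at 61.12, 17.56 and 16.54 FPKM in *Npr1*+/- 1 to 3, with a log2 fold change of 0.85 without and 0.82 with the block, and blocked DESeq2 called it (adjusted p = 1.48e-05). The 6 fat markers summed to between 1163 and 5863 CPM in WT and to between 2488 and 9738 CPM in *Npr1*+/- libraries, highest in the libraries numbered 1 as *Pde3b* was, and their part in its level was not tested. Of the membrane guanylate cyclases and natriuretic peptide receptors, 3 of 9 were tested, and besides *Npr1* the smallest p was that of *Npr3*, the clearance receptor (2.92 to 6.33 FPKM in WT and 3.95 to 5.80 FPKM in *Npr1*+/- libraries, log2 fold change 0.16). Of the cGMP channels and exporters 2 of 8 were tested, the exporters *Abcc5* and *Abcc4*, with log2 fold changes of 0.11 and 0.07.

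The 6 partners of soluble guanylate cyclase, the nitric oxide synthases and the proteins that keep its haem usable, had a median log2 fold change of 0.44 with 5 of 6 positive. At an unadjusted p under 0.05 edgeR without the block found 1 of the 6, *Nos3*, the endothelial nitric oxide synthase, where 1.88% of all genes were higher at that p. With the block it found 2 higher, *Nos3* and *Hsp90aa1*, against 7.36% of all genes. *Nos3* was at 14.10, 10.47 and 14.45 FPKM in WT 1 to 3 and at 32.56, 30.92 and 25.53 FPKM in *Npr1*+/- 1 to 3, without overlap. The log2 ratio was 1.19 (standard error 0.19, edgeR adjusted p = 0.999, and adjusted p = 0.0743 with the block), and DESeq2 called it (adjusted p = 0.000839). The summed endothelial markers were higher in each *Npr1*+/- library than in any WT library as well, and their part in the level of *Nos3* was not tested. *Hsp90aa1*, a chaperone, was at 277 ± 91.8 FPKM in WT and 402 ± 187 FPKM in *Npr1*+/- aortas (SD, n = 3), and the groups overlapped. Its log2 fold change was 0.54 without the block and 0.49 with it (edgeR adjusted p = 0.999 and 0.329).

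The genes with the profile most like that of *Gucy1b1* were searched among 13928 tested genes by the root mean square difference of centred log2 CPM over the 6 libraries. The closest were *Fgl2* (0.037), *Thbs2* (0.069) and *Abtb2* (0.069), where the median of all genes was 0.614. *Fgl2* was at 240, 371 and 466 CPM in WT 1 to 3 and at 138, 317 and 302 CPM in *Npr1*+/- 1 to 3, the order of libraries of *Gucy1b1*. For *Prkg1* the closest were *Qsox1* (0.054), *Dok1* (0.055) and *Oat* (0.057), against a median of 0.444. Within the set the closest pair was *Gucy1b1* and *Pde3a* (0.080), followed by *Gucy1a1* and *Pde5a* (0.123). The 6 libraries share the step between those numbered 1 and the others, which enters each of these values.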

How the data were processed

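RNA of aorta was measured in 3 WT and 3 *Npr1*+/- libraries, grouped by the sample labels. The authors filtered reads with SOAPnuke, aligned them to a set of coding genes with Bowtie2 and quantified them with RSEM, and the submitters' processing notes name mm10. The deposited estimated counts are not normalized. The deposited FPKM are scaled by length and library size, and their unit was read from the values, since the header does not name it. The authors' means (4 columns) were not used. Symbols were matched to 18070 of 18191 genes, and coordinates are those of GENCODE M21.

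Estimated counts were rounded and tested with edgeR 4.0.16 (R 4.3.3), with TMM, a minimum count of 10, the quasi-likelihood test and Benjamini-Hochberg adjustment over 13938 genes. DESeq2 1.42.0, limma 3.58.1 on log2(FPKM + 0.1), other normalization and filters, and fits without each library were alternatives. Ratios of FPKM were compared by exact permutation tests. The fits were tested on simulated counts. Deviations of same-numbered libraries from the mean of their genotype correlated at 0.64, 0.39 and 0.24 across genes, over 0.1 for each pair. On that ground the numbers were used as pairs in the blocked fits. Pairs of different numbers ranged from -0.58 to 0.44. Of these, WT 3 with *Npr1*+/- 2 (0.44) and WT 2 with *Npr1*+/- 3 (0.37) were above the 0.24 of number 3. The correlations therefore do not tell numbers 2 and 3 apart. The set and the lists were chosen with earlier results of these data known. All 10 genes are named, with the 2 genes of smallest p from each pathway list. In each library, 3 counts were taken as the floor, which is 0.180 to 0.222 CPM.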

Additional observations from a re-analysis of the deposited data

How the results depend on the processing

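The count of called genes among the 10 was 0 with edgeR, with DESeq2's size factors, with every gene kept whatever its counts, with limma on FPKM at both pseudocounts, with the replicate block, without any single library and without both libraries numbered 1. It was 3 with DESeq2 and the replicate block, added after the data were seen. Over all genes the count was 0 with edgeR and with the replicate block in edgeR, 16 with DESeq2, 265 with DESeq2 and the block, 1 (*Gm14434*) without both libraries numbered 1 and 32 with the block and without them, a fit also added after the data were seen. Over the 5 pathway lists it was 1 with DESeq2 (*Nos3*) and 3 with DESeq2 and the block (*Nos3*, *Pde3b* and *Mrvi1*, named after their values were seen). *Gucy1a1*, *Gucy1b1*, *Pde5a*, *Pde3a* and *Pde9a* kept their direction in 18 of 18 alternatives each, and the log2 fold change without 1 library ranged from -0.71 to -0.28, -0.78 to -0.25, -0.68 to -0.22, -0.67 to -0.15 and 0.63 to 1.22, each smallest in size without *Npr1*+/- 1. Without both libraries numbered 1, the log2 fold changes of these 5 genes were -0.44, -0.48, -0.35, -0.38 and 0.91. Without 1 library the log2 fold change of *Gucy1a2* ranged from -0.16 to 0.057 and that of *Prkg1* from -0.42 to 0.063. That of *Prkg2* ranged from -0.22 to 0.75 and that of *Pde2a* from 0.057 to 1.16. Relative to the smooth muscle markers the direction turned for *Gucy1a2* (0.27), *Prkg1* (0.11) and *Pde1a* (0.016), and relative to the endothelial markers for *Prkg2* (-0.44) and *Pde2a* (-0.012). Without 1 library the difference in the alpha to beta ratio ranged from -0.032 to 0.119, that in the share of *Pde5a* from -12.07 to -1.54 percentage points, of *Pde2a* from 1.55 to 16.2, of *Pde3a* from -7.99 to 0.392 percentage points and that in the share of *Pde1a* from -1.60 to 0.616, which was 0.230 with CPM in place of FPKM. The cause of these turns was not tested. The block changed no other call. The lowest counts were those of *Prkg2* and *Pde9a*, with at most 46 and 100 in a library, and the part of depth in their errors was not tested.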
